A study of Mus musculus with 8 samples.

Results

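The genes described here are 36 genes of fatty acid oxidation and ketogenesis in mouse liver. They were taken by symbol from a table of 37583 genes, and all 36 were in it and passed the filter on low counts, as did 17362 genes in all. The list holds 1 transcriptional regulator (Ppara), 3 genes for hormone and signalling outputs (Fgf21, Pdk4, Vnn1), 6 genes for activation of fatty acids and their import into mitochondria, 4 mitochondrial acyl-CoA dehydrogenases, 3 genes of electron transfer, 5 of the later mitochondrial steps, 8 of peroxisomal oxidation, 5 acyl-CoA thioesterases and 1 ketone body enzyme (Bdh1).

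Whole liver of 8-month-old C57BL6/CBA mice on a chow diet was sequenced in 8 libraries of 3 groups. The PR-SET7_LOBE group held 4 libraries, with the genotype PR-SET7_LX_ALB_CRE: Pr-Set7, a histone H4 methyltransferase encoded by Setd8, was inactivated in hepatocytes by a Cre recombinase driven by the albumin promoter, and other liver cells keep the gene. The meaning of LOBE is not given in the labels. The DEN_WT group held 2 libraries from wild-type mice that received 25 ml per kg of diethylnitrosamine (DEN), a liver carcinogen activated in hepatocytes, by intraperitoneal injection at postnatal day 15, with no concentration stated. The WT group held 2 libraries from wild-type mice without DEN. The labels number the replicates and do not say that they are separate animals, so p-values here reflect the scatter of these libraries alone, which could be technical in origin. In bulk liver, fewer cells of a type and less RNA per cell cannot be told apart.

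Hepatocytes take up fatty acids, couple them to coenzyme A, and pass long chains through the carnitine shuttle into mitochondria, where rounds of dehydrogenation, hydration, a further dehydrogenation and thiolysis release acetyl-CoA. Very long and branched chains and dicarboxylic acids are shortened first in peroxisomes, and thioesterases release free acids from acyl-CoA in both organelles and in the cytosol. During fasting the liver turns the acetyl-CoA into ketone bodies. PPARα, a nuclear receptor activated by fatty acids, drives many of these genes in the fasted mouse liver and also the release of the hormone FGF21.

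Total counts ran from 7305595 to 12170293 in the PR-SET7_LOBE libraries, were 10120058 and 10802335 in the DEN_WT libraries, and were 13757466 and 16108081 in the WT libraries. Values below are CPM, counts scaled to a common library size by the TMM method, at which 3 counts are worth between 0.265 and 0.287 CPM. The TMM factors differed between the groups, running from 0.876 to 1.48 in PR-SET7_LOBE, at 1.05 and 1.12 in DEN_WT, and at 0.674 and 0.760 in WT. Setd8, the targeted gene, had 62.6, 57.4, 47.9 and 46.5 CPM in PR-SET7_LOBE, against 51.9 and 56.0 CPM in WT, and its log2 fold change was -0.0086 ± 0.32 (SE; adjusted p = 0.994, edgeR's quasi-likelihood test). Which part of the gene is deleted is not given in the sources used here, so this value checks the label only in part. PR-SET7_LOBE replicate 1 correlated better with WT (mean r = 0.923 across genes) than with the other PR-SET7_LOBE libraries (mean r = 0.890). The 12 hepatocyte markers summed to between 51148 and 172384 CPM in PR-SET7_LOBE, to 131664 and 166449 CPM in DEN_WT, and to 118247 and 153238 CPM in WT, with the lowest sum in PR-SET7_LOBE replicate 3.

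The WT libraries differed from each other in this pathway. WT replicate 2 was the highest of the 8 libraries for 26 of the 36 genes, which is 72.2%, against 12.4% of all tested genes. The summed level of the 36 genes was 6190, 5983, 4502 and 4846 CPM in PR-SET7_LOBE, 4614 and 5062 CPM in DEN_WT, and 6584 and 12185 CPM in WT. At TMM scaling WT replicate 1 therefore lay near PR-SET7_LOBE replicate 1, and WT replicate 2 lay alone. Such sums depend on the scaling, and the TMM factors of WT replicate 1 and PR-SET7_LOBE replicate 1 were 0.760 and 0.876. The median deviation of the 36 genes from their own means on the log2 scale was 0.92 in WT replicate 2 and 0.053 in WT replicate 1, and it ran from -0.26 to 0.028 in PR-SET7_LOBE and was -0.26 and -0.15 in DEN_WT.

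**Figure D1:**
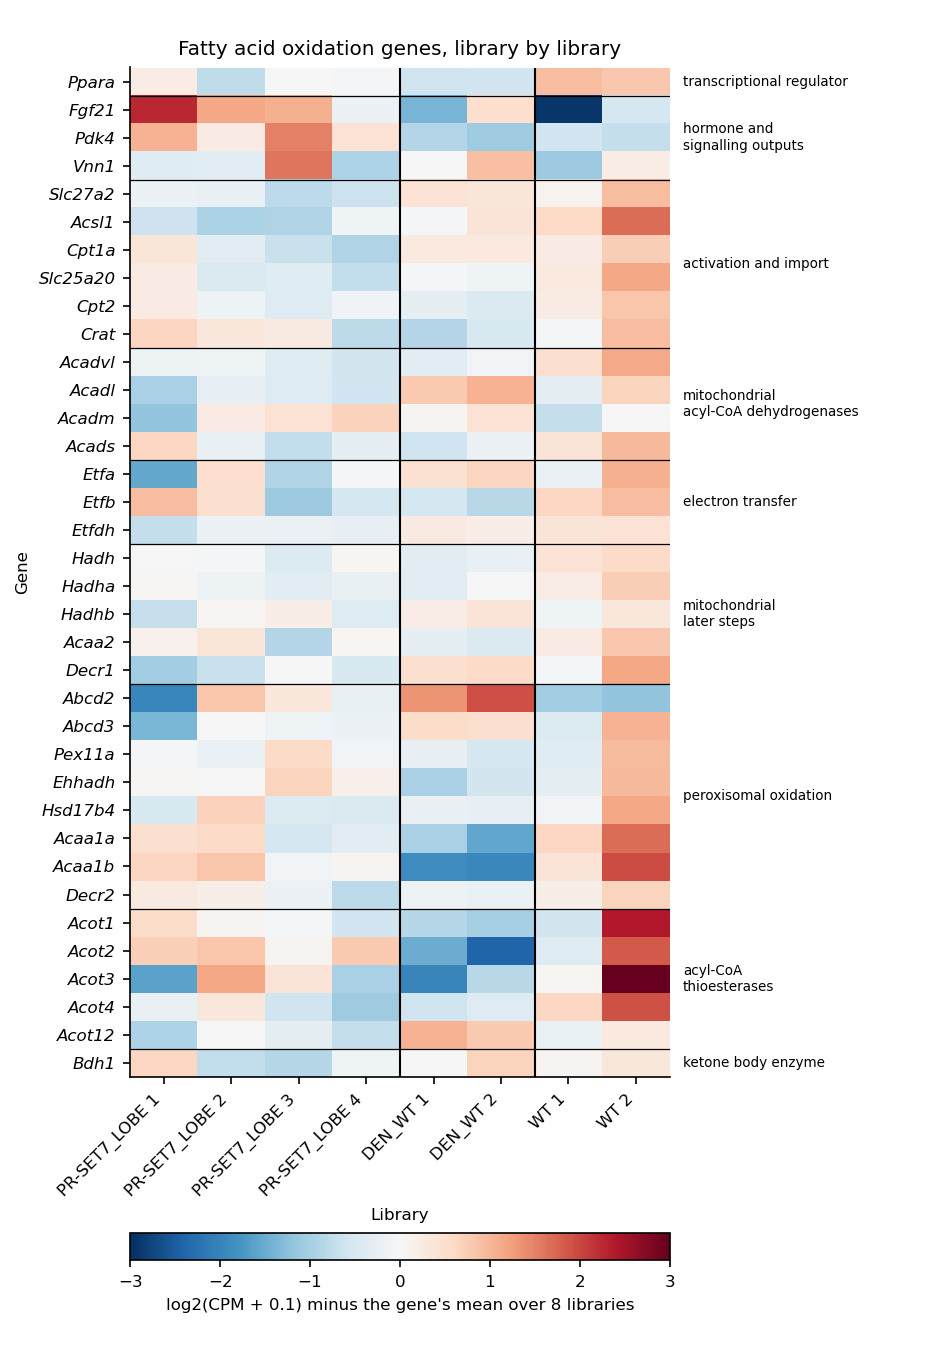
Level of each of the 36 genes (rows, grouped by role) in each of the 8 libraries (columns), as log2 CPM minus the mean of the gene over the 8 libraries. Red is above and blue below that mean; the WT replicate 2 column is red in nearly every row, and Acot3 in it lies beyond the end of the colour scale.

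Of the 36 genes, 33 were higher in WT replicate 2 than in WT replicate 1, which is 91.7%, against 47.2% of all tested genes. The ratio between these libraries was 2 or more for 15 genes, which is 41.7%, against 15.8% of all tested genes, and it was 0.5 or less for 0 genes, against 13.3%. The median ratio was 1.78 for the 36 genes and 0.984 for all tested genes. Under total-count scaling these medians were 1.58 and 0.872, and 31 genes were higher in replicate 2. With 1 library on each side these ratios are a description and have no test.

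The ratio was highest for the thioesterases, with a median of 4.66, and then for peroxisomal oxidation, with a median of 2.37. Acot3 stood at 39.5 CPM in WT replicate 2 and 2.87 CPM in WT replicate 1, a ratio of 13.7. Acot1, at 49.97 and 6.41 CPM, had a ratio of 7.79, Fgf21 one of 5.78 and Acot2 one of 4.66. Activation and import had a median ratio of 1.78, the acyl-CoA dehydrogenases 1.61, the later mitochondrial steps 1.42 and electron transfer 1.22. At the other end, Pdk4 had a ratio of 0.902, Abcd2 of 0.911, Ppara of 0.918 and Etfdh of 1.04, so the receptor gene itself did not follow the enzymes.

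The same comparison was made for other lists of genes. The 20 PPARα targets outside oxidation had a median ratio of 1.81, and the 10 fed-state lipogenic genes, among them Fasn, had a median of 2.10. The 12 hepatocyte markers had a median of 1.09, the 15 clock genes one of 0.787 and the 10 macrophage markers one of 0.452, with 9 of 10 lower in replicate 2. The medians of both the PPARα targets and the lipogenic genes were thus above that of all tested genes, 0.984, though single members such as Ucp2 and Srebf1 lay below it. The labels state free access to food and give no time of collection, and the part of feeding, time and cell content in the difference was not tested.

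**Figure D2:**
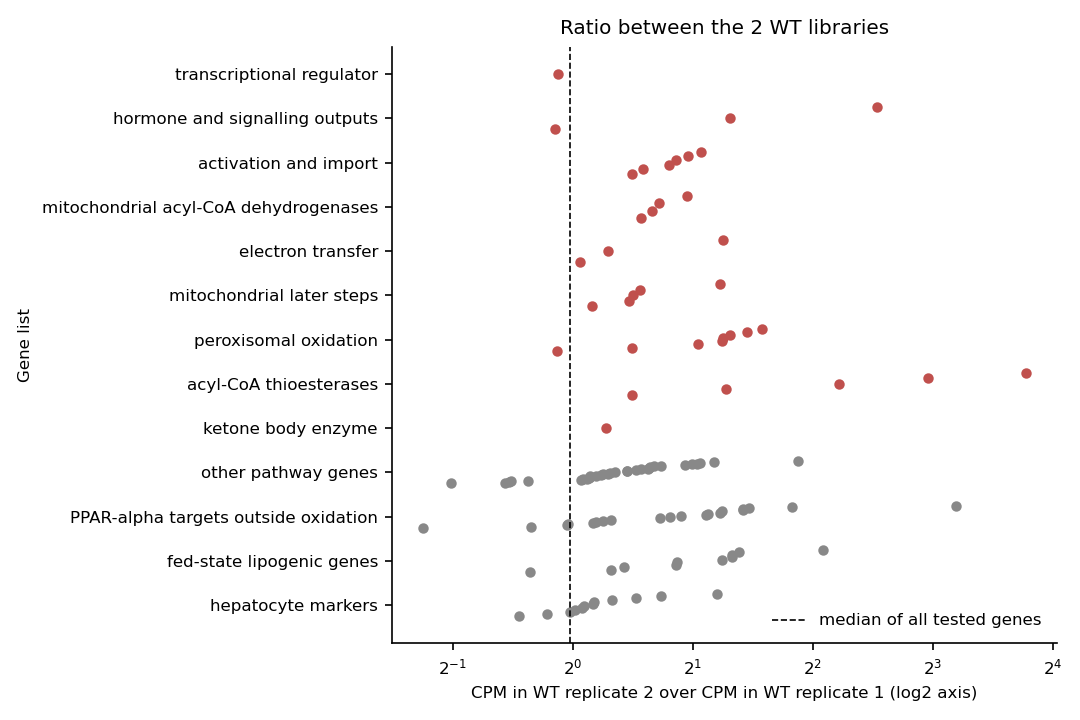
Ratio of CPM in WT replicate 2 to CPM in WT replicate 1 for each gene (points, log2 axis), by role for the 36 genes (red) and for 4 other lists (grey). The dashed line is the median of all tested genes, 0.984; the thioesterases reach furthest to the right and Ppara lies left of the line.

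Per kilobase of transcript, the 36 genes spanned a wide range of levels, and their order differed between the groups. The thiolases Acaa1b and Acaa1a were the highest by group mean in PR-SET7_LOBE, at 485 and 307 CPM per kilobase, and in WT, at 944 and 663 CPM per kilobase. In DEN_WT the highest were Acaa2 and the acyl-CoA synthetase Slc27a2, at 193 and 183 CPM per kilobase, with Acaa1a at 119 and Acaa1b at 95.98. The lowest were Acot3 and Acot4 in PR-SET7_LOBE, at 0.885 and 1.06 CPM per kilobase, and in DEN_WT, at 0.309 and 0.927, whereas in WT they were Pdk4 and Abcd2, at 1.65 and 1.84 CPM per kilobase.

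The comparison of PR-SET7_LOBE with WT asks how loss of Pr-Set7 in hepatocytes bears on the liver transcriptome. None of the 36 genes passed an adjusted p of 0.05 in either direction (edgeR's quasi-likelihood test, 0 higher and 0 lower). Of all tested genes, 0.15% were called higher and 0.0979% lower. An unadjusted p under 0.05 was found for 13 of the 36 genes, against 2987 of all 17362 tested genes. The log2 fold change was negative for 31 genes and positive for 5, with a median of -0.69, against 0.11 for all tested genes. The groups did not overlap for 11 genes that were lower in PR-SET7_LOBE, against 10.5% of all tested genes, and for 2 that were higher, against 11.6%. Under total-count scaling the median of the 36 genes was -0.012 and that of all tested genes 0.79, with 18 negative and 18 positive values. A change of scaling shifts all genes of a library alike, so these counts of signs depend on it. The 3 genes for hormone and signalling outputs had positive values under both. The 6 genes of activation and import and the 5 thioesterases had negative ones, of which 4 and 3 stayed negative under total-count scaling. Without WT replicate 2 the median was -0.16, against 0.32 for all tested genes, with 21 negative and 15 positive values. Without PR-SET7_LOBE replicate 1 the test called 6 of the 36 genes lower (Ppara, Acsl1, Cpt1a, Slc25a20, Acadvl and Acot4) and 1 higher (Abcd2), while 6.54% and 7.41% of all tested genes were called lower and higher. DESeq2 called Acsl1, Acadvl, Acot3 and Acot4 lower and Fgf21 and Pdk4 higher, while it called 1.46% of all tested genes lower and 3.66% higher.

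The comparison of DEN_WT with WT sets wild-type liver after DEN beside wild-type liver without it. The DEN_WT libraries correlated with each other at r = 0.979 and with WT at mean r = 0.837 and 0.824. DEN and any other difference between these libraries and the WT libraries cannot be told apart. Of the 36 genes, 3 fell in DEN_WT (Acaa1a, Acaa1b and Acot2) and 1 rose (Abcd2), against 4.54% of all tested genes called lower and 5.18% called higher, or 9.73% in either direction. Another 32 did not pass the test, and 13 in all had an unadjusted p under 0.05, against 5016 of all 17362 tested genes. The median log2 fold change was -0.80, against 0.058 for all tested genes, with 27 negative and 9 positive values. The groups did not overlap for 22 genes that were lower in DEN_WT, against 33.3% of all tested genes, and for 4 that were higher, against 37.8%. Under total-count scaling the median was -0.18, against 0.65 for all tested genes, and the same 4 genes were called. Without WT replicate 2 the median was -0.28, against 0.25 for all tested genes. None of the 4 calls held when WT replicate 2, DEN_WT replicate 1 or DEN_WT replicate 2 was left out. The log2 fold changes of these 4 genes kept their sign. Both contrasts against WT use the same 2 WT libraries, so their values are not independent of each other.

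PR-SET7_LOBE and DEN_WT livers were also compared directly, which does not use WT replicate 2 in either mean. Of the 36 genes, 3 were higher in PR-SET7_LOBE (Pdk4, Acaa1b and Acot2) and 2 lower (Acadl and Acot12), against 4.82% of all tested genes called higher and 6.26% called lower, or 11.1% in either direction. The median log2 fold change was 0.13, against 0.18 for all tested genes, with 19 positive and 17 negative values. The groups did not overlap for 7 genes that were higher in PR-SET7_LOBE, against 19.3% of all tested genes, and for 9 that were lower, against 21.2%. The 5 calls were lost without DEN_WT replicate 1 (adjusted p from 0.101 to 0.255, edgeR) and without DEN_WT replicate 2 (adjusted p from 0.177 to 0.315), with each log2 fold change keeping its sign.

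**Figure D3:**
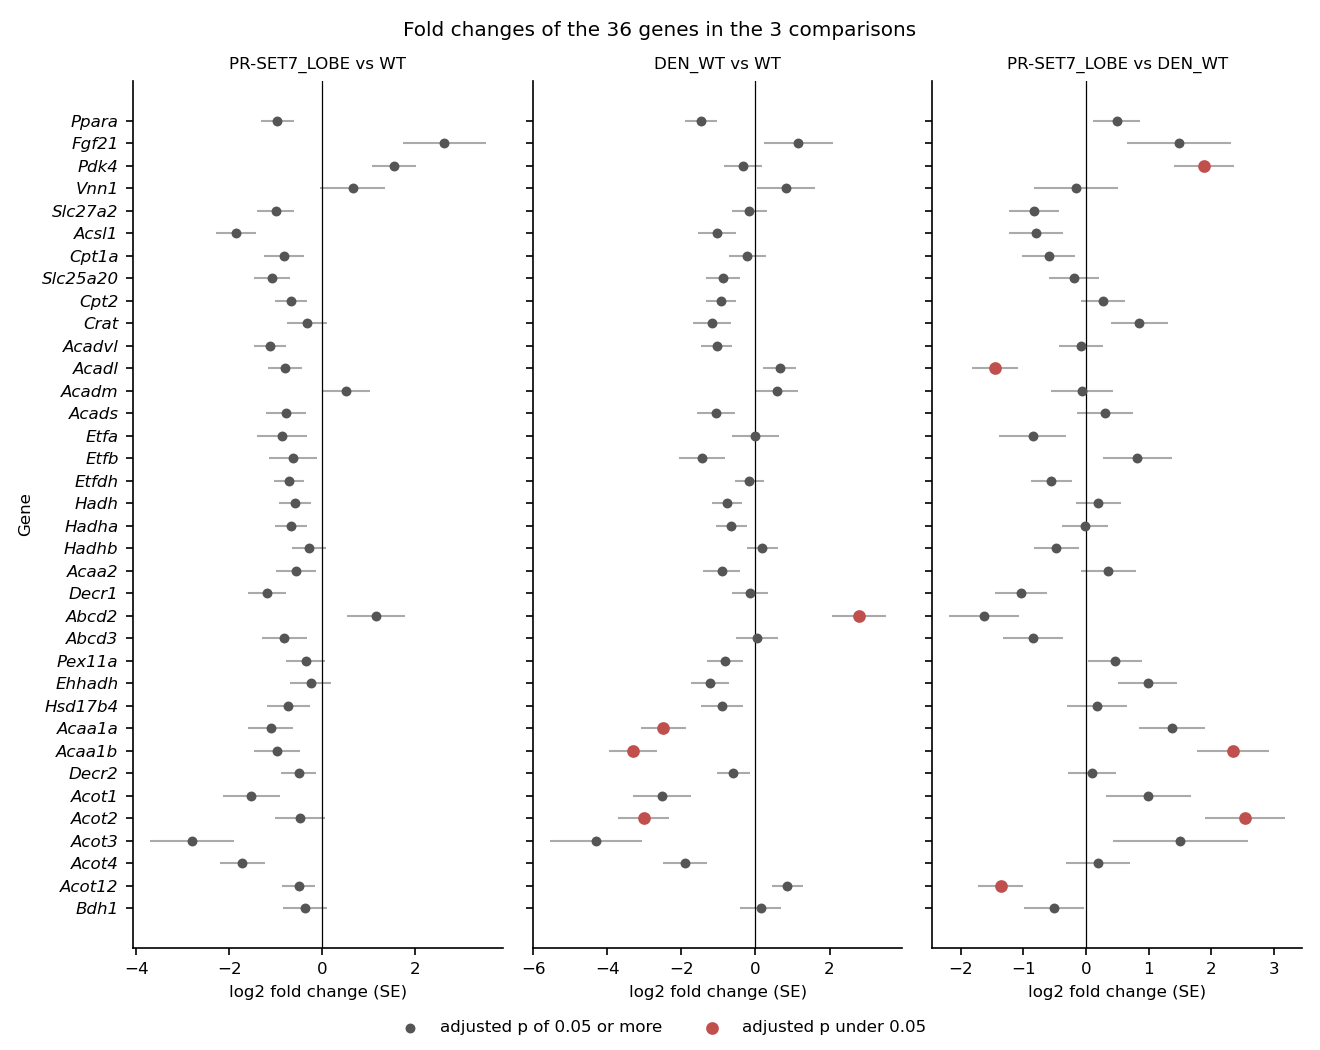
Log2 fold change of each of the 36 genes in the 3 comparisons, with the standard error as a bar; the red points passed an adjusted p of 0.05. In both comparisons against WT most points lie left of 0, with medians of -0.69 and -0.80, and against DEN_WT the PR-SET7_LOBE values lie on both sides.

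Ppara encodes the nuclear receptor at the head of the pathway (chromosome 15, 85565413 to 85633249, mm9). It was at 120, 61.2, 104 and 101 CPM in PR-SET7_LOBE, at 68.6 and 69.1 CPM in DEN_WT, and at 197 and 181 CPM in WT. At TMM scaling neither group overlapped WT. Of all tested genes, 10.5% were lower without overlap in PR-SET7_LOBE against WT, and 33.3% in DEN_WT against WT. The WT libraries were close to each other for Ppara, unlike for most of the enzymes. The log2 fold change was -0.97 ± 0.36 in PR-SET7_LOBE against WT (SE; adjusted p = 0.226, edgeR's quasi-likelihood test) and -1.46 ± 0.43 in DEN_WT against WT (adjusted p = 0.0563). Ppara did not pass the test in either comparison. With DESeq2 the adjusted p in DEN_WT was 0.0119, and without PR-SET7_LOBE replicate 1 it was 0.0448 for PR-SET7_LOBE and 0.0151 for DEN_WT. The log2 fold changes were -0.95 and -1.42 when WT replicate 2 was left out, and under total-count scaling they were -0.28 and -0.87.

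Among the partners of PPARα, the coactivator gene Ppargc1a fell in DEN_WT. It was at 31.0, 15.2, 12.3 and 27.2 CPM in PR-SET7_LOBE, at 6.29 and 6.62 CPM in DEN_WT, and at 40.2 and 61.3 CPM in WT. The 3 groups did not overlap. Its log2 fold change was -2.97 ± 0.54 in DEN_WT against WT (adjusted p = 0.0077, edgeR's quasi-likelihood test) and 1.73 ± 0.47 in PR-SET7_LOBE against DEN_WT (adjusted p = 0.0395). The Ppargc1a call against WT was lost without DEN_WT replicate 1 or replicate 2 (adjusted p = 0.0775 and 0.0882), and that against DEN_WT in the fit on the 2 groups compared (adjusted p = 0.0599) and without PR-SET7_LOBE replicate 4, either DEN_WT library or either WT library (adjusted p from 0.0584 to 0.312). Pparg, which encodes the related receptor of fat storage, was at 10.7, 15.02, 24.97 and 16.1 CPM in PR-SET7_LOBE, against 3.90 and 2.65 CPM in DEN_WT, and rose by a log2 fold change of 2.35 ± 0.48 (adjusted p = 0.0103; 0.0828 and 0.201 without DEN_WT replicate 1 and replicate 2). Of the 8 partners, 0 were called in PR-SET7_LOBE against WT by edgeR, against 0.248% of all tested genes. In DEN_WT against WT 1 was called, against 9.73%, and in PR-SET7_LOBE against DEN_WT 2 were, against 11.1%. An unadjusted p under 0.05 was found in PR-SET7_LOBE against WT for 2, against 2987 of all 17362 tested genes.

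Fgf21 encodes a hormone that the liver releases in fasting and under stress (chromosome 7, 52869277 to 52870860, mm9). It was at 31.3, 14.3, 13.6 and 5.65 CPM in PR-SET7_LOBE, at 2.39 and 9.19 CPM in DEN_WT, and at 0.766 and 4.43 CPM in WT. Every PR-SET7_LOBE library was above both WT libraries, and the highest of them was replicate 1. The log2 fold change was 2.63 ± 0.89 in PR-SET7_LOBE against WT (SE; adjusted p = 0.204, edgeR's quasi-likelihood test; 0.0276 with DESeq2). The WT value rests on 8 and 48 counts. Its log2 fold change was 4.46 without WT replicate 2 and 1.86 without WT replicate 1.

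Pdk4 encodes the kinase that shuts off pyruvate dehydrogenase and so spares glucose carbon when fat is burned (chromosome 6, 5433351 to 5446309, mm9). It was at 18.8, 10.6, 25.8 and 12.1 CPM in PR-SET7_LOBE, at 4.87 and 4.24 CPM in DEN_WT, and at 6.03 and 5.44 CPM in WT. All 4 PR-SET7_LOBE libraries lay above all 4 others, and the WT libraries were nearly equal. Pdk4 rose in PR-SET7_LOBE relative to DEN_WT with a log2 fold change of 1.88 and an SE of 0.48 (adjusted p = 0.0283, edgeR's quasi-likelihood test). Against WT the log2 fold change was 1.55 ± 0.47, with an adjusted p of 0.169 (0.036 with DESeq2). The call against DEN_WT was lost without PR-SET7_LOBE replicate 3 (adjusted p = 0.0608), and under total-count scaling (adjusted p = 0.0514). Pdk4 is also a gene of striated muscle, and of 8 muscle markers 4 passed the filter and 4, among them Ckm and Mb, did not. The muscle markers that passed summed to between 8.17 and 25.5 CPM in PR-SET7_LOBE, to 0.531 and 0.707 CPM in DEN_WT, and to 12.2 and 14.9 CPM in WT. These 4 markers had a median log2 fold change of 1.82 in PR-SET7_LOBE against WT, with 3 positive values and 1 negative. The negative value, -0.20, was that of Acta1, which made up most of the WT sums. The markers with positive values were low in WT. Against DEN_WT their median was 4.08, with 4 positive values. The part of muscle RNA in the Pdk4 differences was not tested. Vnn1, a pantetheinase gene induced by PPARα in mouse liver, was at 125 CPM in PR-SET7_LOBE replicate 3 and between 21.8 and 32.7 CPM in the other PR-SET7_LOBE libraries, at 40.9 and 77.6 CPM in DEN_WT, and at 19.3 and 47.9 CPM in WT.

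**Figure D4:**
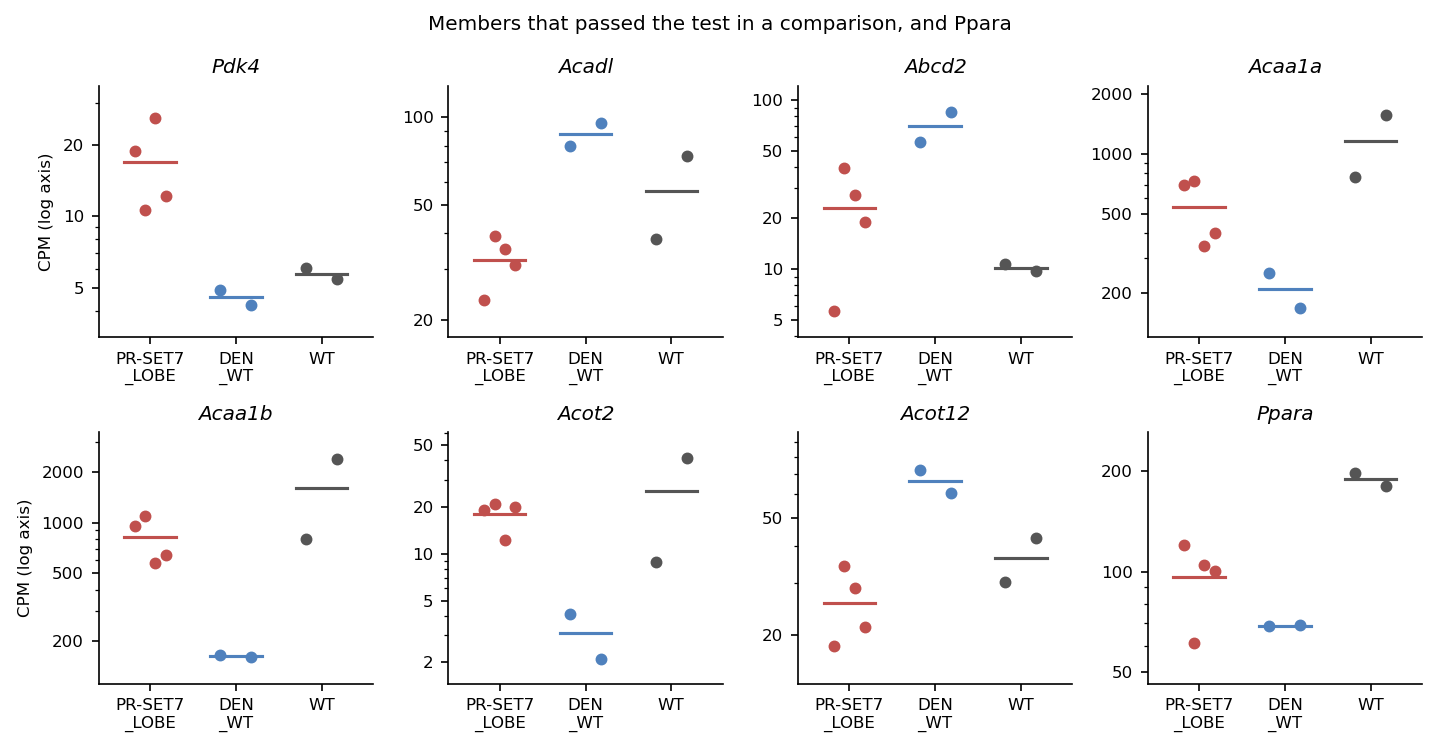
CPM in each library (points, log axis) and group means (bars) of the 7 genes that passed the test in at least 1 comparison and of Ppara. Pdk4 is high in all 4 PR-SET7_LOBE libraries, Acaa1a, Acaa1b and Acot2 are low in DEN_WT, and Abcd2, Acadl and Acot12 are high in DEN_WT.

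Acsl1 encodes the main acyl-CoA synthetase of liver (chromosome 8, 47556395 to 47621405, mm9). It was at 232, 187, 192 and 328 CPM in PR-SET7_LOBE, at 345 and 472 CPM in DEN_WT, and at 544 and 1138 CPM in WT. In all 3 comparisons one group lay wholly above the other, with PR-SET7_LOBE the lowest. Its log2 fold change of -1.84 ± 0.43 in PR-SET7_LOBE against WT had the smallest adjusted p of the 36 genes in that comparison, 0.102 (edgeR's quasi-likelihood test; 0.00239 with DESeq2). With no filter on low counts the adjusted p was 0.0243, and without PR-SET7_LOBE replicate 1 it was 0.0308. Without WT replicate 2 the log2 fold change was -1.14, and under total-count scaling it was -1.12.

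The other genes of activation and import had log2 fold changes nearer to 0 than that of Acsl1 in PR-SET7_LOBE against WT. Cpt1a, the carnitine palmitoyltransferase that gates entry into mitochondria, was at 355, 217, 172 and 146 CPM in PR-SET7_LOBE, at 337 in both DEN_WT libraries, and at 326 and 460 CPM in WT. Its level in PR-SET7_LOBE replicate 1 lay between the WT libraries, and the other PR-SET7_LOBE libraries lay below both. Slc25a20, the carrier that moves acylcarnitine across the inner membrane, was at 76.4, 47.7, 49.9 and 38.9 CPM in PR-SET7_LOBE, at 63.0 and 58.7 CPM in DEN_WT, and at 79.7 and 145 CPM in WT. The log2 fold changes of these 6 genes in PR-SET7_LOBE against WT ran from -1.84 to -0.32, and in DEN_WT against WT from -1.17 to -0.17. None of the 6 passed the test in any comparison. Of all tested genes, 0.248% passed in PR-SET7_LOBE against WT, 9.73% in DEN_WT against WT and 11.1% in PR-SET7_LOBE against DEN_WT. In PR-SET7_LOBE against WT 3 had an unadjusted p under 0.05 (edgeR), against 2987 of all 17362 tested genes.

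The acyl-CoA dehydrogenases catalyse the first step of each round, and they differ in the chain length they take. Acadl, the long-chain enzyme (chromosome 1, 66877413 to 66909851, mm9), was at 23.4, 38.8, 35.2 and 31.0 CPM in PR-SET7_LOBE, at 79.4 and 95.7 CPM in DEN_WT, and at 38.1 and 73.6 CPM in WT. It fell in PR-SET7_LOBE relative to DEN_WT by 1.45 on the log2 scale, with an SE of 0.37 (adjusted p = 0.0273, edgeR's quasi-likelihood test). The call was lost without PR-SET7_LOBE replicate 4 (adjusted p = 0.0572) and under total-count scaling (adjusted p = 0.0626), and Acadl overlaps Gm15793 on the same strand over 635 bases, so its counts are uncertain. Acadvl, the very-long-chain enzyme, was at 116, 117, 99.4 and 87.5 CPM in PR-SET7_LOBE, at 101 and 121 CPM in DEN_WT, and at 178 and 280 CPM in WT, and both groups lay below WT without passing the test. Acadm, the medium-chain enzyme, had 59.9 CPM in PR-SET7_LOBE replicate 1 and 161 to 220 CPM in the other 3 libraries of that group, 145 and 183 CPM in DEN_WT, and 82.6 and 136 CPM in WT. The PR-SET7_LOBE libraries of Acadm lay on both sides of WT, and its log2 fold change was 0.52 ± 0.50 in PR-SET7_LOBE against WT (adjusted p = 0.594, edgeR) and 0.58 ± 0.57 in DEN_WT against WT (adjusted p = 0.521). Acadvl shares 2119 bases with Dvl2 on the opposite strand.

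Electrons from these enzymes pass through the flavoprotein of Etfa and Etfb to the ubiquinone oxidoreductase of Etfdh. Etfb was at 315, 233, 78.3 and 116 CPM in PR-SET7_LOBE, at 116 and 94.3 CPM in DEN_WT, and at 258 and 316 CPM in WT. Its log2 fold change in DEN_WT against WT was -1.45 ± 0.62 (SE; adjusted p = 0.153, edgeR's quasi-likelihood test). Etfdh was at 51.9, 75.1, 75.0 and 71.4 CPM in PR-SET7_LOBE, at 103 and 97.9 CPM in DEN_WT, and at 110 and 115 CPM in WT. The PR-SET7_LOBE libraries lay below all the others, and the log2 fold change against WT was -0.72 ± 0.32 (adjusted p = 0.287). Etfb has a copy, Gm45233, that is 99.7% identical over 626 bases, so some of its reads may have been counted elsewhere.

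The later mitochondrial steps are carried by the trifunctional protein (Hadha and Hadhb), the short-chain dehydrogenase Hadh, the thiolase Acaa2 and the reductase Decr1, which is needed for unsaturated chains. None of these 5 genes passed the test in any comparison, against 0.248%, 9.73% and 11.1% of all tested genes in the 3 comparisons. Decr1 had the smallest adjusted p among them, at 31.7, 40.8, 64.1 and 47.4 CPM in PR-SET7_LOBE, 90.9 and 97.0 CPM in DEN_WT, and 62.5 and 146 CPM in WT. It was lower in every PR-SET7_LOBE library than in either DEN_WT library, and the log2 fold change there was -1.03 ± 0.41 (adjusted p = 0.143, edgeR's quasi-likelihood test). Hadha was at 177 to 233 CPM in PR-SET7_LOBE, 182 and 227 CPM in DEN_WT, and 265 and 375 CPM in WT.

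In the peroxisomal group the genes moved in opposite directions in DEN_WT. Acaa1a and Acaa1b encode the 3-ketoacyl-CoA thiolases that end each peroxisomal round and lie near each other on chromosome 9 (119248794 to 119259417 and 119057141 to 119066211, mm9). Acaa1b was at 955, 1095, 579 and 647 CPM in PR-SET7_LOBE, at 165 and 159 CPM in DEN_WT, and at 802 and 2388 CPM in WT. The DEN_WT libraries were far below all the others. The log2 fold change was -3.30 ± 0.64 in DEN_WT against WT (SE; adjusted p = 0.011, edgeR's quasi-likelihood test) and 2.34 ± 0.57 in PR-SET7_LOBE against DEN_WT (adjusted p = 0.0241). Against WT it was -0.96 ± 0.49 in PR-SET7_LOBE (adjusted p = 0.333), whose libraries straddled WT replicate 1. The call against DEN_WT was lost when PR-SET7_LOBE replicate 2 was left out (adjusted p = 0.0513).

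Acaa1a was at 693, 730, 344 and 399 CPM in PR-SET7_LOBE, at 251 and 167 CPM in DEN_WT, and at 764 and 1572 CPM in WT. It fell in DEN_WT relative to WT by 2.48 on the log2 scale, with an SE of 0.60 (adjusted p = 0.0276, edgeR's quasi-likelihood test). Against DEN_WT the PR-SET7_LOBE libraries were all higher, with a log2 fold change of 1.37 ± 0.52 that did not pass (adjusted p = 0.124). The transcripts of Acaa1a and Acaa1b are 96.6% identical over 1428 bases, so the authors' counting may have split or dropped reads between them, and Acaa1a shares 1736 bases with Myd88 on the opposite strand. Without WT replicate 2 the log2 fold changes in DEN_WT against WT were -2.20 for Acaa1b (adjusted p = 0.0861) and -1.77 for Acaa1a (adjusted p = 0.192), and without WT replicate 1 the adjusted p of Acaa1a was 0.0519.

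Abcd2 encodes a peroxisomal transporter of very long and polyunsaturated acyl-CoA (chromosome 15, 90976315 to 91022238, mm9). It was at 5.64, 39.4, 27.5 and 18.9 CPM in PR-SET7_LOBE, at 56.2 and 84.5 CPM in DEN_WT, and at 10.6 and 9.68 CPM in WT. It rose in DEN_WT relative to WT with a log2 fold change of 2.79 and an SE of 0.72 (adjusted p = 0.0356, edgeR's quasi-likelihood test). PR-SET7_LOBE replicate 1 was below WT and the other 3 libraries of that group were above it, and the log2 fold change against WT was 1.17 ± 0.62 (adjusted p = 0.346). The WT libraries agreed here, and without WT replicate 1 or WT replicate 2 the log2 fold changes were 2.87 and 2.83, with adjusted p of 0.169 and 0.173. Ehhadh, the bifunctional enzyme of the peroxisome, was at 346, 334, 536 and 373 CPM in PR-SET7_LOBE, at 171 and 231 CPM in DEN_WT, and at 278 and 663 CPM in WT, and no comparison called it.

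The thioesterase genes Acot1, Acot2, Acot3 and Acot4 form a cluster on chromosome 12 (85328811 to 85400515, mm9) and encode enzymes of the cytosol (Acot1), mitochondria (Acot2) and peroxisomes (Acot3, Acot4). Acot2 was at 19.1, 20.9, 12.3 and 20.0 CPM in PR-SET7_LOBE, at 4.07 and 2.12 CPM in DEN_WT, and at 8.90 and 41.5 CPM in WT. The PR-SET7_LOBE libraries all lay between the WT libraries and above DEN_WT. Acot2 fell in DEN_WT relative to WT by 3.02 on the log2 scale, with an SE of 0.69 (adjusted p = 0.0225, edgeR's quasi-likelihood test), and in PR-SET7_LOBE it rose relative to DEN_WT by a log2 fold change of 2.54 ± 0.64 (adjusted p = 0.0265; 0.0559 without PR-SET7_LOBE replicate 2). With WT replicate 2 left out, the difference between DEN_WT and WT was -1.42 on the log2 scale (adjusted p = 0.235).

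The other 3 genes of the cluster were not called by edgeR's quasi-likelihood test with all 8 libraries, and WT replicate 2 was the higher of the WT libraries for each. Acot1 was at 13.8, 10.04, 9.01 and 6.29 CPM in PR-SET7_LOBE, at 5.14 and 4.68 CPM in DEN_WT, and at 6.41 and 49.97 CPM in WT. Acot3 was at 0.845, 6.31, 3.62 and 1.37 CPM in PR-SET7_LOBE, at 0.620 and 1.501 CPM in DEN_WT, and at 2.87 and 39.5 CPM in WT. In PR-SET7_LOBE against WT the log2 fold changes were -1.53 for Acot1 and -2.80 for Acot3, and without WT replicate 2 they were 0.69 and 0.15, which turns the direction of both. Acot4 was at 6.86, 10.2, 5.29 and 3.83 CPM in PR-SET7_LOBE, at 5.31 and 6.18 CPM in DEN_WT, and at 12.5 and 30.4 CPM in WT, so both groups lay below both WT libraries. Acot1 and Acot2 are 95.1% identical over 1274 bases of transcript and Acot1 and Acot3 86.4% over 1180 bases, so reads of these genes could have been split between them.

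Acot12, on chromosome 13 (91881117 to 91925753, mm9), encodes a cytosolic thioesterase that acts on acetyl-CoA, and it did not follow the cluster. It was at 18.4, 34.4, 29.0 and 21.3 CPM in PR-SET7_LOBE, at 72.3 and 60.3 CPM in DEN_WT, and at 30.3 and 42.7 CPM in WT. The DEN_WT libraries were the highest of all. Acot12 fell in PR-SET7_LOBE relative to DEN_WT by 1.36 on the log2 scale, with an SE of 0.35 (adjusted p = 0.0307, edgeR's quasi-likelihood test). The call was lost without PR-SET7_LOBE replicate 4 (adjusted p = 0.069) and under total-count scaling (adjusted p = 0.0776).

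The stretches before the transcription starts of the thiolase pair and of 4 thioesterases are shown because Acaa1a and Acaa1b fell together in DEN_WT, and because Acot12 was high in the libraries where Acot2 was low. Each is the 120 bases before the start in the direction of the gene, from RefSeq on the GRCm38.p6 build, which is not the mm9 build of the counts. Capitals mark a match, with at most 1 mismatch, to AGGNCANAGGNCA, the direct repeat of the hexamer AGGNCA with 1 base between that PPARα and its partner RXR are known to bind, searched on both strands.
Acaa1a (chr9:119341174-119341293, plus strand): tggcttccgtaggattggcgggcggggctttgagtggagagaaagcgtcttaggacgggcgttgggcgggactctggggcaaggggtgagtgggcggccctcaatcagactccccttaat
Acaa1b (chr9:119157094-119157213, minus strand): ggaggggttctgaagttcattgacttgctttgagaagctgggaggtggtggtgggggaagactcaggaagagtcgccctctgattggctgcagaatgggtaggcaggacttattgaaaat
Acot1 (chr12:84009382-84009501, plus strand): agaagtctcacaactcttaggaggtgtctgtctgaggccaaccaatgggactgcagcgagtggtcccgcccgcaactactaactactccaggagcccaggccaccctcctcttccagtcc
Acot2 (chr12:83987741-83987860, plus strand): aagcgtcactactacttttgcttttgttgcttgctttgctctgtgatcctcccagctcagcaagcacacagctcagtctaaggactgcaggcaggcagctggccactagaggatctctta
Acot4 (chr12:84038259-84038378, plus strand): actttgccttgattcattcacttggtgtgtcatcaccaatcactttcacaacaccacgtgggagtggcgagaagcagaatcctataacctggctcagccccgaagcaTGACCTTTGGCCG
Acot12 (chr13:91741401-91741520, plus strand): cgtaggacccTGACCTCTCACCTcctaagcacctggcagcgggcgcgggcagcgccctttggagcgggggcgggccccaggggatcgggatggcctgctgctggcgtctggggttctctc
A match with at most 1 mismatch lay in the windows of 250 bases before to 50 after the start in 5 of the 30 members that have a window (Acot12, Acot4, Etfa, Etfb and Hadh), which is 16.7%, against 5.39% of 27025 genes. Acot3, whose stretch is not shown, has 2 windows in the table, and the best match in each has 2 mismatches. An exact match lay in 0 of the 30 and in 0.451% of genes. The match of Acot4 starts 13 bases and that of Acot12 110 bases before the start, on the minus strand of the stretch. Among the 5 genes with a match, the log2 fold change in DEN_WT against WT was -1.90 ± 0.59 for Acot4 (SE; adjusted p = 0.0666, edgeR). It was 0.86 ± 0.43 for Acot12 (adjusted p = 0.205), -0.0080 for Etfa, -1.45 for Etfb and -0.77 for Hadh. The part of the motif in these values was not tested. Vnn1, Crat, Acaa2, Decr1, Abcd2 and Hsd17b4 are not in the table of windows.

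Bdh1, the mitochondrial enzyme that interconverts the ketone bodies acetoacetate and 3-hydroxybutyrate, showed no difference past the test. It was at 496, 194, 179 and 293 CPM in PR-SET7_LOBE, at 318 and 507 CPM in DEN_WT, and at 339 and 409 CPM in WT. The log2 fold change was -0.37 ± 0.48 in PR-SET7_LOBE against WT (SE; adjusted p = 0.701, edgeR's quasi-likelihood test) and 0.14 ± 0.56 in DEN_WT against WT (adjusted p = 0.889).

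Other genes of the pathway, taken from a list of 33 of which 32 were tested, gave similar counts. In PR-SET7_LOBE against WT 0 were called by edgeR, against 0.248% of all tested genes, and the median log2 fold change was -0.61. An unadjusted p under 0.05 was found there for 11, against 2987 of all 17362 tested genes. In DEN_WT against WT 2 rose and 1 fell, against 5.18% and 4.54% of all tested genes, with a median of -0.66. Crot, the peroxisomal carnitine octanoyltransferase, rose in DEN_WT and was at 26.02, 105, 123 and 100 CPM in PR-SET7_LOBE, 223 and 180 CPM in DEN_WT, and 39.0 and 27.0 CPM in WT (log2 fold change 2.61 ± 0.65 in DEN_WT against WT, adjusted p = 0.0312, edgeR). Acsl4, an acyl-CoA synthetase with a preference for arachidonate, rose by 3.15 ± 0.81 in DEN_WT on the log2 scale (adjusted p = 0.0355), and Pecr, a peroxisomal enoyl-CoA reductase, fell by 1.87 ± 0.50 (adjusted p = 0.04). Without any one DEN_WT or WT library none of these 3 calls held (adjusted p from 0.0998 for Acsl4 to 0.258 for Pecr). The call of Acsl4 was also lost with the replicate number as a block (adjusted p = 0.087), and that of Pecr under total-count scaling (adjusted p = 0.0576) and without PR-SET7_LOBE replicate 2 (adjusted p = 0.0636). Abcd2, Crot and Acsl4 were each high in DEN_WT, and in the PR-SET7_LOBE group each was lowest in replicate 1, a likeness chosen after their values were seen.

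PPARα targets outside oxidation and genes of fed-state lipogenesis were set beside the pathway. Of the 20 PPARα targets, 1 fell in DEN_WT relative to WT: Cyp4a10, a fatty acid omega-hydroxylase, at 9.30, 11.3, 6.87 and 13.5 CPM in PR-SET7_LOBE, 4.96 and 5.56 CPM in DEN_WT, and 15.1 and 32.5 CPM in WT (log2 fold change -2.18 ± 0.52, adjusted p = 0.0261, edgeR), against 4.54% of all tested genes called lower. The Cyp4a10 call was lost without WT replicate 2 (adjusted p = 0.224), without DEN_WT replicate 1 or replicate 2 (adjusted p = 0.19 and 0.184) and under total-count scaling (adjusted p = 0.0806). The lipid droplet gene Plin4 rose in PR-SET7_LOBE relative to DEN_WT, with 43.7, 12.1, 118 and 30.2 CPM in PR-SET7_LOBE and 5.14 and 1.68 CPM in DEN_WT (log2 fold change 3.90 ± 0.91, adjusted p = 0.0194; 0.0555 and 0.202 without DEN_WT replicate 1 and replicate 2). Of the 10 lipogenic genes, 3 fell in DEN_WT relative to WT (Fasn, Thrsp and Me1), against 4.54% of all tested genes called lower. The median log2 fold change of the list was -1.40 in each comparison against WT. All 3 calls were lost without WT replicate 2 (adjusted p from 0.0858 for Thrsp to 0.345 for Me1) and without DEN_WT replicate 1 or replicate 2 (adjusted p from 0.112 for Thrsp to 0.278 for Fasn). Without PR-SET7_LOBE replicate 2 the adjusted p was 0.0514 for Fasn and 0.0622 for Me1, without WT replicate 1 it was 0.0715 for Fasn, and under total-count scaling it was 0.1 for Me1. Fasn, the fatty acid synthase, was at 743 to 1466 CPM in PR-SET7_LOBE, 479 and 837 CPM in DEN_WT, and 2305 and 4175 CPM in WT. The lists of synthesis and of oxidation genes thus both had negative medians against WT at TMM scaling.

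Markers of cell types were compared as well, and some lists differed between the groups while others overlapped. The 12 hepatocyte markers had a median log2 fold change of -0.89 in PR-SET7_LOBE against WT and -0.70 in DEN_WT against WT. These are close to the -0.69 and -0.80 of the 36 genes. Their mean sum was 108024 CPM in PR-SET7_LOBE, and it was higher in DEN_WT, 149057 CPM, than in WT, 135743 CPM. By edgeR 0 of the hepatocyte markers were called in either comparison, against 0.248% and 9.73% of all tested genes. An unadjusted p under 0.05 was found for 4 and 3, against 2987 and 5016 of all 17362 tested genes. The 8 cholangiocyte markers summed to between 119 and 296 CPM in PR-SET7_LOBE, to 433 and 738 CPM in DEN_WT, and to 38.0 and 68.0 CPM in WT, most of it Spp1. Their median log2 fold change was 1.73 in PR-SET7_LOBE against WT, with 5 positive and 3 negative values. In DEN_WT against WT it was 0.78, with 6 positive and 2 negative values. The 10 stellate and matrix markers summed to between 202 and 279 CPM in PR-SET7_LOBE, to 236 and 406 CPM in DEN_WT, and to 114 and 160 CPM in WT. Of 8 adipocyte markers 4 did not pass the filter, among them Adipoq and Plin1, and the 4 that passed include Pparg and Fabp4. Fabp4, a fatty acid binding protein of adipocytes and macrophages, was at 14.7, 26.2, 43.8 and 22.9 CPM in PR-SET7_LOBE, at 18.9 and 10.7 CPM in DEN_WT, and at 2.11 and 3.32 CPM in WT, and it rose in both groups relative to WT (adjusted p = 0.046 and 0.0264, edgeR). Both calls of Fabp4 were lost without WT replicate 1 or replicate 2 (adjusted p from 0.0864 to 0.411), that in PR-SET7_LOBE also without replicate 2 or 3 of that group and in the fit on the 2 groups compared (adjusted p from 0.0609 to 0.1), and that in DEN_WT also without either DEN_WT library (adjusted p = 0.164 and 0.0621). Gpnmb, a macrophage gene, rose in DEN_WT relative to WT (adjusted p = 0.0193, edgeR). The call was lost without DEN_WT replicate 1, WT replicate 1 or WT replicate 2, with log2 fold changes from 3.53 to 5.58. The 10 macrophage markers had a median log2 fold change of 0.085 in DEN_WT against WT, with 6 positive and 4 negative values. They summed to 478 and 317 CPM in DEN_WT and to 1180 and 376 CPM in WT. The T cell gene Cd3d fell to 0.354 and 0.265 CPM in DEN_WT, against 13.97 and 13.6 CPM in WT (adjusted p = 0.00237, edgeR). The 10 T, NK and B cell markers had a median log2 fold change of 0.21 in that comparison, with 6 positive and 4 negative values. The muscle gene Acta1 fell to 0.354 and 0.353 CPM in DEN_WT, against 11.8 and 13.8 CPM in WT (adjusted p = 0.0151; 0.0994 and 0.12 without DEN_WT replicate 1 and replicate 2), and was at 25.5, 10.8, 2.23 and 6.10 CPM in PR-SET7_LOBE. The 8 endothelial markers summed to between 182 and 246 CPM in PR-SET7_LOBE, to 241 and 243 CPM in DEN_WT, and to 223 and 291 CPM in WT. The part of cell content in the lower values of the pathway was not tested.

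**Figure D5:**
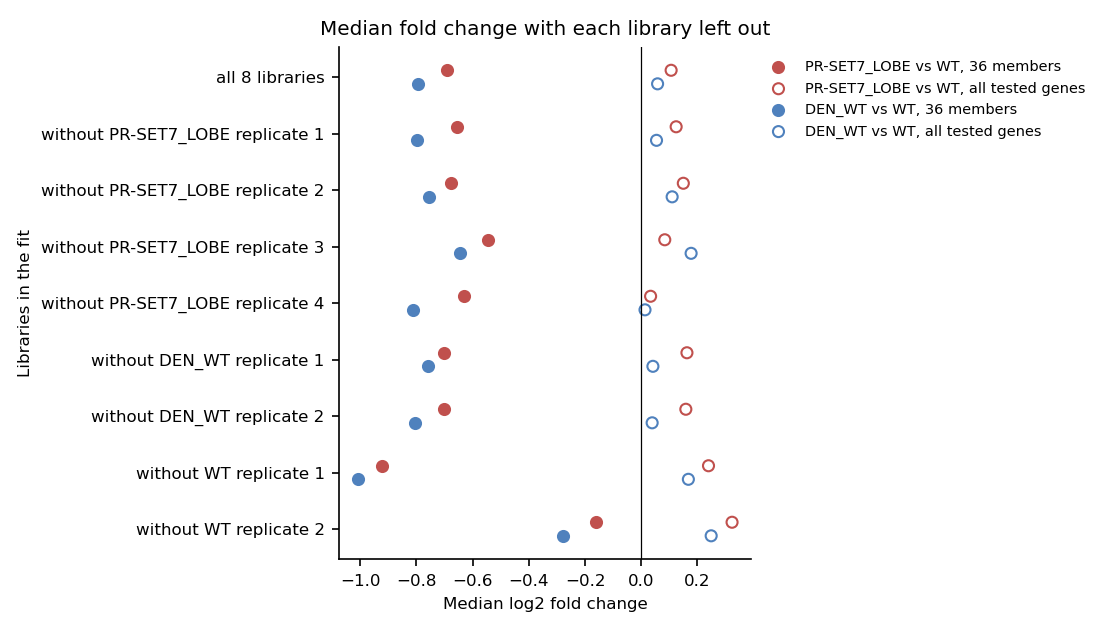
Median log2 fold change of the 36 genes (filled) and of all tested genes (open) in PR-SET7_LOBE against WT (red) and DEN_WT against WT (blue), with all 8 libraries and with each library left out. The filled points stay left of 0 in every row and come closest to it, at -0.16 and -0.28, without WT replicate 2.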

How the data were processed

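Liver RNA of 8 libraries was measured by sequencing. Per the labels' protocols, messenger RNA was taken with oligo(dT) beads, cut with RNase III, ligated, reverse transcribed, amplified and read on an Ion Proton; without molecular identifiers the reads are not independent molecules, so limits from counts cover counting error only. The deposited values are raw counts per Ensembl gene in 1 table of all libraries. The submitters' processing notes name DESeq, Cufflinks and TopHat2 2.0.9 and the build mm9. How reads were counted, including strand and multiple hits, is not given in the sources used, so genes with copies or overlapping neighbours are uncertain.

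From these counts, 17362 genes passed filterByExpr by group in edgeR 4.0.16 (R 4.3.3). Libraries were scaled with TMM and entered 1 robust quasi-likelihood fit on group alone, since groups of 2 libraries need a shared spread (common biological coefficient of variation 0.479). Benjamini-Hochberg adjustment ran over all tested genes, and a gene rose, fell or was called at an adjusted p under 0.05. SE is the log2 fold change divided by the square root of F. Transcript lengths and copies (blastn 2.17.0) come from GENCODE M21, a later build, without its coordinates, and promoter windows from RefSeq.

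Alternatives were RLE and upper-quartile scaling, DESeq2 1.42.0, no filter, a block on replicate number, fits on only the groups compared, and each library left out; a lone library was then assumed to vary like the other groups. Total-count scaling was added after seeing the TMM factors. Named genes are Ppara, every member called in a comparison, the member of each role with the smallest adjusted p, the 4 highest and 4 lowest members by ratio between the WT libraries, and up to 4 genes of each other list with the smallest adjusted p; further members are described to account for the list and were chosen after their values were seen. The members and lists were chosen with earlier results of these data known. Every pair of libraries within a group differed by more than sampling noise.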

Additional observations from a re-analysis of the deposited data

Results flagged for a closer look

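In the PR-SET7_LOBE group, the only one with 4 libraries, each of the 36 genes was screened for a library whose gap to the nearest other exceeds the 95% critical value of Dixon's ratio. Chance flags about 1 in 20 groups, and 4 of the 36 genes were flagged. Vnn1 was at 125 CPM in PR-SET7_LOBE replicate 3, above its 3 other libraries. Pex11a, which encodes a protein of peroxisome division, was at 88.5 CPM in the same library, also above the others. Etfdh was at 51.9 CPM in PR-SET7_LOBE replicate 1, below the others. Hsd17b4, a peroxisomal multifunctional enzyme, was at 256 CPM in PR-SET7_LOBE replicate 2, above the others, and it shares 875 bases with Cd63-ps on the same strand. The cause was not tested in any of them.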

How the results depend on the processing

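Against WT, the counts of called genes moved with the tool and the libraries. In PR-SET7_LOBE against WT, DESeq2 called 2 of the 36 genes higher and 4 lower, against 3.66% and 1.46% of all tested genes. With no filter 1 was lower, against 0.499%. Without PR-SET7_LOBE replicate 1, 1 was higher and 6 were lower, against 7.41% and 6.54%. Each library left out in turn gave a median log2 fold change from -0.92 to -0.16. In DEN_WT against WT, 7 of the 36 genes were lower with DESeq2, against 7.57% of all tested genes, and 5 with no filter, against 3.12%. In the fit on the 2 groups compared 7 were lower, against 16.8%, and with the replicate number as a block 7, against 8.04%. Without PR-SET7_LOBE replicate 1, 9 were called in either direction, against 26.5%. Each library left out in turn gave a median from -1.01 to -0.28. In PR-SET7_LOBE against DEN_WT, each library left out in turn gave a median from 0.011 to 0.24. Under total-count scaling the medians against WT were -0.012 and -0.18. With that scaling 0 of the 36 genes were lower in PR-SET7_LOBE against DEN_WT, against 4.82% of all tested genes. Leaving out 1 library of a group of 2 makes the design smaller and can also move the fold changes. Without WT replicate 2 the log2 fold change in DEN_WT against WT went from -3.02 to -1.42 for Acot2. For Abcd2 it went from 2.79 to 2.83. The cause of the lost calls was not tested. Same-numbered libraries of PR-SET7_LOBE and WT deviated together with r = 0.165 and 0.106 and those of PR-SET7_LOBE and DEN_WT with r = -0.0087 and 0.020, so the labels' numbers were not taken as pairs, and replicates 3 and 4 of PR-SET7_LOBE have no partner in the block. Of the values of single named genes under all alternatives, 2662 kept their side of the threshold, 217 passed it where they had not, 109 no longer passed it and 0 of the called values changed sign. The DEN_WT and WT groups have 2 libraries each, which limits the precision, and so do low counts for genes such as Fgf21, with 8 and 48 counts in WT, and Acot3, with 7 and 17 counts in DEN_WT.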
